A study of Mus musculus with 57 samples.

Results

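Scavenger receptors and the TAM system of phagocytic receptors were followed as 9 genes, chosen by symbol from a list: the scavenger receptors Marco, Msr1, Cd36, Scarb1 and Colec12, the receptors Mertk and Axl, and the ligands Gas6 and Pros1. All 9 were present among the 50565 genes of the count table of 1 experiment and the 53278 genes of the other, and all 9 passed the filter on low counts in both. The RNA came from brain cells positive for CD11b, labelled microglia, of adult wild-type mice (WT) and of littermates lacking P2RY12 (KO), a microglial surface receptor that senses nucleotides. The sex experiment compared 4 WT with 5 KO males and 4 WT with 5 KO females. In the LPS experiment the labels give a treatment of lps or of ns, a term they do not define. LPS, lipopolysaccharide, is a component of bacterial outer membranes and was injected intraperitoneally (1 mg/kg). The labels give no allele, strain or age in weeks, no time after injection and, in the LPS experiment, no sex. Nothing in the labels of that experiment says which libraries came from separate animals, so its p-values measure the spread between these libraries, which may in part be technical.

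Scavenger receptors are surface proteins that take up polyanionic and lipid-rich particles, such as bacteria, modified lipoproteins and cell debris. The TAM receptors Tyro3, Axl and Mertk are receptor tyrosine kinases that recognise dying cells through the bridging proteins Gas6 and protein S (Pros1), which bind exposed phosphatidylserine. In the brain, Mertk and Axl serve microglia in clearing apoptotic cells, and TAM signalling is known to restrain inflammatory responses of macrophages.

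Of the 33 libraries of the LPS experiment, 4 WT libraries that carry the library number 2 are shown apart. Those labelled WT ns 1 and 5 had 482 and 926 CPM of P2ry12 (CPM, the count of a gene per M counts of the scaled library total, M standing for mega), against 3510 to 5400 CPM in the other 6 WT ns libraries. They had 1780 and 2490 CPM of the acute-phase gene Saa3, against 1.52 to 64.2 CPM. Those labelled WT LPS 1 and 6 had 1.59 and 3.2 CPM of Saa3, against at least 1420 CPM in the other WT LPS samples. Saa3 responded to LPS together with Marco and Msr1, so leaving these 4 out is not independent of the WT response described here, and values with them included are given beside it. WT LPS 8 and WT LPS 9 differed by little more than sampling noise and were summed into 1 sample, which left 6 WT ns, 6 WT LPS, 8 KO ns and 8 KO LPS samples. In the sex experiment every KO animal had less P2ry12 (group means 376 and 482 CPM) than every WT animal (3010 to 5930 CPM). In the tested samples of the LPS experiment P2ry12 was at 729 ± 210 CPM in KO ns (SD, n = 8) and 4430 ± 747 CPM in WT ns (SD, n = 6). With LPS it was at 104 ± 22.1 CPM in KO (SD, n = 8) and 578 ± 246 CPM in WT (SD, n = 6). By another measure, 6 libraries of the LPS experiment stood apart, with a mitochondrially encoded share of 2.69% to 8.55% against 0.787% to 1.81% in the other 26 samples. WT ns 5 and WT LPS 6 are among these 6, and 4 were in the test: WT LPS 7, KO ns 5, KO ns 6 and KO LPS 5. Library totals were 58.5 to 319 M counts in the sex experiment and 15.9 to 168 M in the LPS experiment. Of 8 microglial markers listed, all 8 were in the table of the LPS experiment and 7 in that of the sex experiment, and none of these was at 0 in any group.

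Of the 6 members called with LPS in KO or WT, 3 could be matched to a promoter of RefSeq (build GRCm38.p6). Their 250 bases before the start site are shown because these genes moved in opposite directions. The Marco stretch is chr1:120505025-120505274 on the minus strand, that of Cd36 is chr5:17835897-17836146 on the minus strand, and that of Gas6 is chr8:13494536-13494785 on the minus strand. Each is written 5′ to 3′ along the gene, and capitals mark a match to the core bound by the myeloid factor PU.1.
Marco: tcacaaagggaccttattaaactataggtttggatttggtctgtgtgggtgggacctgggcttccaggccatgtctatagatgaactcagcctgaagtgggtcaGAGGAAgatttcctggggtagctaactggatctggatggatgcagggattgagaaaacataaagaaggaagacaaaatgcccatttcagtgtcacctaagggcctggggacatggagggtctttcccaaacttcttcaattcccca
Cd36: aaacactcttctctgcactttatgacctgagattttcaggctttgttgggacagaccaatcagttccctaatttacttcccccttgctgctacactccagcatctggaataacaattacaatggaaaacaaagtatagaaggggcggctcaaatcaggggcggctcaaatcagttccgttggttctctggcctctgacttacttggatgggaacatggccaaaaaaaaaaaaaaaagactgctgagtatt
Gas6: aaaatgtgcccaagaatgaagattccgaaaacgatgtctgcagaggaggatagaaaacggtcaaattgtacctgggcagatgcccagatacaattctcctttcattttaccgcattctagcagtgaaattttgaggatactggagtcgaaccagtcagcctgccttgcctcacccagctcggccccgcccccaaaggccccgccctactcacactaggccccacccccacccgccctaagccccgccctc
Of the 9 members, 6 had such a stretch. The PU.1 core, searched as GAGGAA on both strands, was found in 23.3% of all 32851 promoter stretches of this length. It was present at 146 bases before the start of Marco (position -146) and, on the opposite strand, at position -130 of Axl, and not in those of Cd36, Gas6, Mertk and Pros1. The motif of AP-1 (TGANTCA, in 6.75% of all stretches) and the kappa-B motif (in 7.25%), also searched on both strands, had no match in the 6 stretches, and no match overlapped another. A match describes letters only.

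LPS changed scavenger receptors in both directions, while Mertk, Axl and Pros1 were not called in either genotype. In KO cells, 5 of the 9 members were called (edgeR quasi-likelihood test, adjusted p-value under 0.05 by Benjamini-Hochberg over all genes tested): Marco, Msr1 and Scarb1 were higher and Cd36 and Colec12 were lower. Among all 16088 genes, 28.9% were called in that comparison, 13.4% higher and 15.6% lower. In WT cells 5 members were called as well: Marco and Msr1 were higher, and Cd36, Colec12 and Gas6 were lower. There 30.9% of all genes were called, 15% higher and 15.9% lower. The median log2 fold change of the 9 members was -0.00456 in KO and -0.37 in WT, beside -0.0222 and -0.0106 over all genes.

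**Figure D1:**
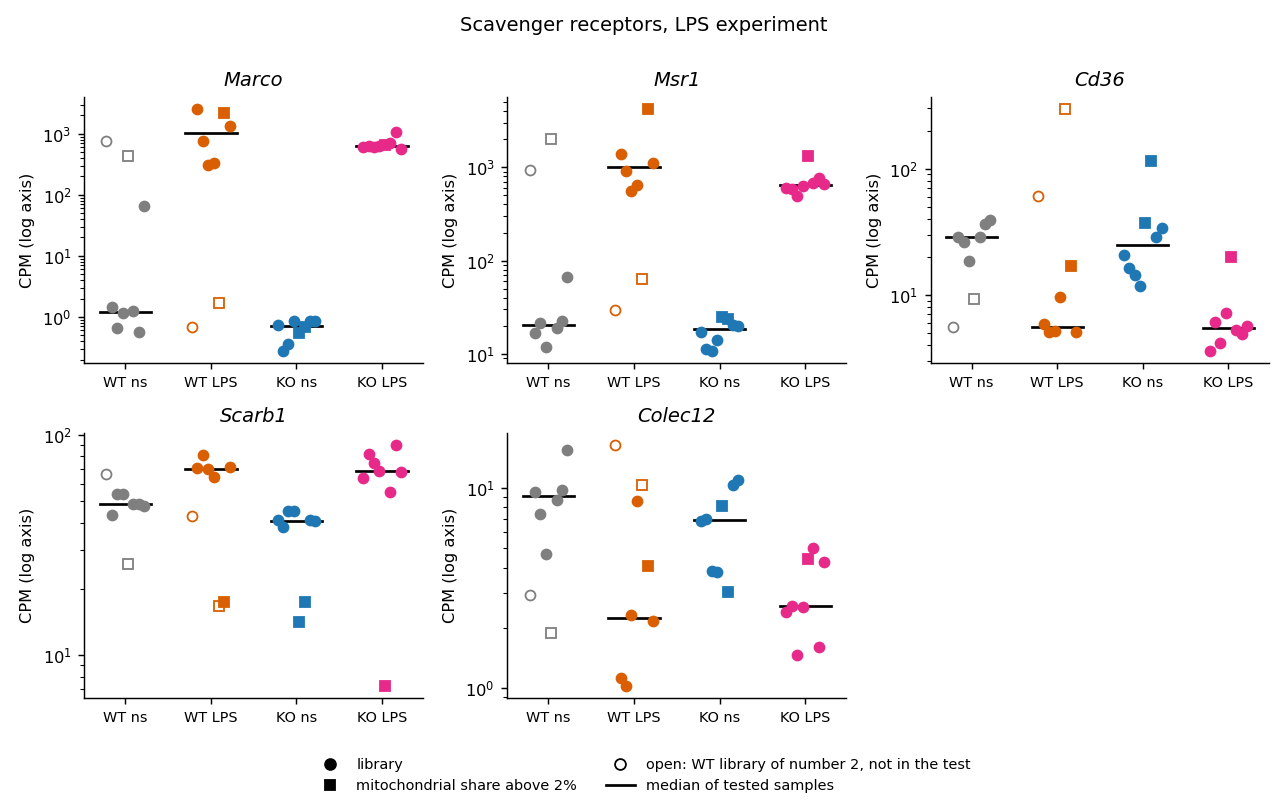
Level of the 5 scavenger receptors in each library of the LPS experiment, in CPM on a log axis, by labelled group. Filled symbols were tested, open symbols are the 4 WT libraries of number 2, squares are libraries with a mitochondrial share above 2%, and bars are medians of the tested samples. Marco and Msr1 are higher in every tested LPS sample than in every tested ns sample, and Scarb1 is low in every square.

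Marco, a class A receptor that binds bacteria and inert particles, was close to the limit of detection without LPS. In KO ns it ranged from 0.278 to 0.855 CPM with a median of 0.705 CPM, on 6 counts in the library with the fewest. In KO LPS it ranged from 567 to 1070 CPM with a median of 629 CPM. No KO LPS sample came near a KO ns sample, and the log2 fold change was 10.06 ± 1.01 (SE, n = 8 and 8; edgeR adjusted p = 2.09e-08). In WT ns it ranged from 0.574 to 64.4 CPM with a median of 1.21 CPM, and in WT LPS from 305 to 2520 CPM with a median of 1040 CPM. The WT groups did not overlap either, with a log2 fold change of 7.21 ± 1.05 (n = 6 and 6; edgeR adjusted p = 7.37e-06). The WT value depends on WT ns 8, which alone held 64.4 CPM where the other 5 WT ns libraries held at most 1.45 CPM. Without it the log2 fold change in WT was 10.2 (edgeR adjusted p = 2.13e-11). WT ns 8 also had 64.2 CPM of Saa3, a summed level of the 8 neutrophil markers of 16000 CPM and of the 5 monocyte markers of 1650 CPM. WT ns 3 had 17200 and 1860 CPM of the same marker sums and 0.647 CPM of Marco. The part of such cells in the Marco level of WT ns 8 was not tested.

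Msr1, the class A receptor for modified lipoproteins, rose from a low but well-measured level. It ranged from 10.8 to 24.9 CPM in KO ns (median 18.4 CPM) and from 487 to 1310 CPM in KO LPS (median 646 CPM). The log2 fold change in KO was 5.35 ± 0.36 (SE; edgeR adjusted p = 1.94e-11). In WT it ranged from 12 to 67 CPM without LPS (median 20.3 CPM) and from 551 to 4190 CPM with LPS (median 1010 CPM), a log2 fold change of 5.79 ± 0.42 (edgeR adjusted p = 2.31e-10). The groups did not overlap in either genotype. The extremes of the LPS groups were WT LPS 7 (4190 CPM) and KO LPS 5 (1310 CPM), both of high mitochondrial share, and without the 4 such libraries the log2 fold changes were 5.32 ± 0.33 in KO and 5.28 ± 0.34 in WT.

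Monocyte markers were present in the same libraries as these increases. The summed level of the 5 monocyte markers had a median of 162 CPM in KO ns (64.8 to 1230 CPM) and 363 CPM in KO LPS (196 to 635 CPM). In WT it was 366 CPM (113 to 1860 CPM) without and 434 CPM (333 to 2470 CPM) with LPS. None of the 5 was called higher with LPS in either genotype and 1 was called lower in each, with a median log2 fold change of -0.00776 in KO and -0.0471 in WT. None of the 5 was at 0 in any group. In bulk RNA, fewer cells of a type and less RNA per cell cannot be told apart.

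Cd36, a class B receptor for long-chain fatty acids, oxidised lipoproteins and thrombospondin, was lower with LPS in both genotypes. It ranged from 11.7 to 115 CPM in KO ns (median 24.6 CPM) and from 3.59 to 19.9 CPM in KO LPS (median 5.43 CPM). These groups overlapped through KO LPS 5, at 19.9 CPM, while the other KO LPS samples held at most 7.19 CPM. The log2 fold change in KO was -2.12 ± 0.34 (SE; edgeR adjusted p = 2.4e-05). In WT, Cd36 ranged from 18.4 to 39.4 CPM without LPS (median 28.8 CPM) and from 5.03 to 16.9 CPM with LPS (median 5.52 CPM), with no overlap. The log2 fold change in WT was -1.98 ± 0.39 (edgeR adjusted p = 0.000316). KO ns 6, of high mitochondrial share, had the highest level at 115 CPM. Without the 4 libraries of high share, KO ns held 11.7 to 33.7 CPM and KO LPS 3.59 to 7.19 CPM, and the log2 fold change was -1.95 ± 0.19 (edgeR adjusted p = 1.68e-08).

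Colec12, a scavenger receptor with a C-type lectin domain, fell alongside Cd36 from a lower level. It ranged from 3.01 to 11 CPM in KO ns (median 6.91 CPM) and from 1.47 to 5 CPM in KO LPS (median 2.57 CPM), so that the groups overlapped. The log2 fold change in KO was -1.17 ± 0.32 (SE; edgeR adjusted p = 0.00564). In WT it ranged from 4.68 to 15.6 CPM without LPS (median 9.13 CPM) and from 1.02 to 8.65 CPM with LPS (median 2.24 CPM). The WT groups overlapped through WT LPS 5, and the log2 fold change was -1.67 ± 0.37 (edgeR adjusted p = 0.00109).

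The summed markers of border-associated macrophages were lower with LPS beside Cd36 and Colec12, as were those of microglia and endothelial cells. The summed level of 7 such markers, among them Mrc1, Lyve1, Cd163 and Pf4, had a median of 520 CPM in KO ns (243 to 714 CPM) and 269 CPM in KO LPS (155 to 492 CPM). In WT the medians were 555 CPM (324 to 949 CPM) and 249 CPM (177 to 546 CPM). With LPS 3 of the 7 were called lower in KO and 2 in WT, none was called higher, and none was at 0 in any group. Cd163 was not called in either genotype. Among all genes, 15.6% were called lower in KO and 15.9% in WT. The median log2 fold change of the 7 markers was -0.49 in KO and -0.976 in WT. Of the 8 microglial markers, 5 were called lower in each genotype, with medians of -0.576 and -0.949. Of 4 endothelial markers tested, 2 were called lower in KO and 3 in WT, with medians of -1.02 and -1.58. The genes whose log2 level was most like that of Colec12 over the 28 samples were Cd4 (Pearson r 0.921), Mrc1 (0.915) and Timd4 (0.908). For Cd36 they were Csmd3 (0.962), Pf4 (0.959) and Bbs9 (0.948). These coefficients describe samples that share treatment, library set and depth. The part of such cells in the levels of Cd36 and Colec12 was not tested.

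Scarb1, the receptor for high-density lipoprotein, depended on which libraries were counted. It ranged from 14.2 to 45.3 CPM in KO ns (median 40.8 CPM) and from 7.24 to 90.3 CPM in KO LPS (median 68.2 CPM). Over all tested samples the log2 fold change in KO was 0.86 ± 0.32 (SE; edgeR adjusted p = 0.0412), a call that was lost when any of 11 of the 16 KO samples was left out. In WT it ranged from 43.4 to 53.9 CPM without LPS and from 17.4 to 81 CPM with LPS, with a log2 fold change of 0.31 ± 0.36 (edgeR adjusted p = 0.555). All 6 libraries of high mitochondrial share had 7.24 to 26 CPM of Scarb1, and the other 26 samples had 38.4 to 90.3 CPM. Without the 4 that were in the test, KO ns held 38.4 to 45.3 CPM and KO LPS 54.8 to 90.3 CPM, with no overlap, and the log2 fold change was 0.79 ± 0.09 (edgeR adjusted p = 1.13e-07). In WT the same 24 samples gave 43.4 to 53.9 CPM against 64.4 to 81 CPM and a log2 fold change of 0.54 ± 0.10 (edgeR adjusted p = 5.69e-05). In that smaller set 54.7% of all genes were called in KO and 54.1% in WT.

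**Figure D2:**
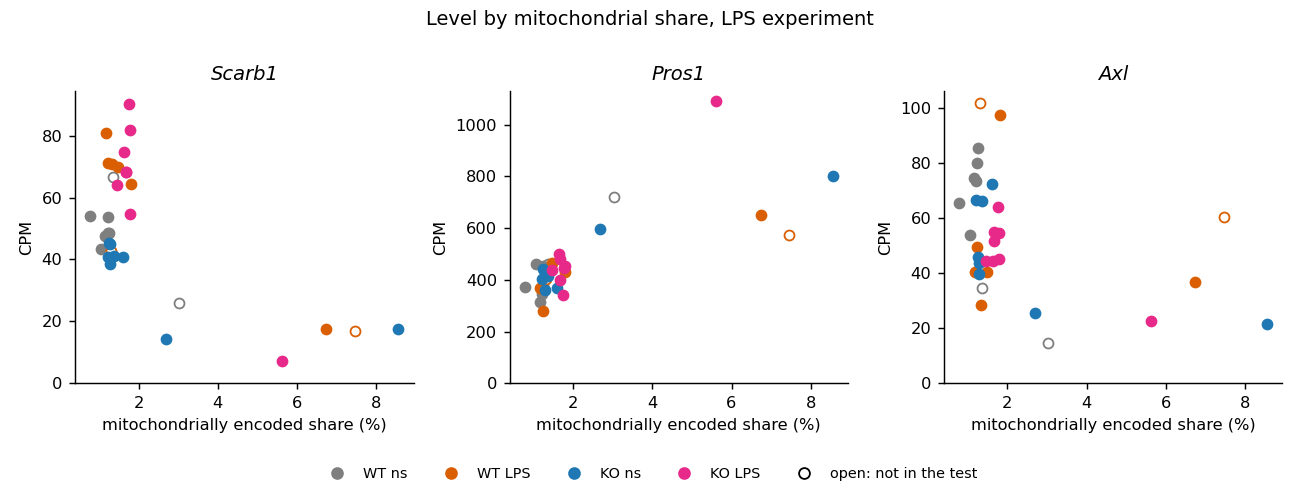
Levels of Scarb1, Pros1 and Axl (CPM) against the share of counts from mitochondrially encoded genes (%), 1 point per sample of the LPS experiment, coloured by labelled group; open points were not tested. To the right of 2%, Scarb1 stays between 7.24 and 26 CPM and Pros1 between 575 and 1090 CPM.

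The receptor Mertk was the most abundant member per length of exon without LPS. Per kb of exon its mean level was 233 CPM in WT ns and 258 CPM in KO ns. Pros1 (94.9 ± 14.5 and 116 ± 36.7 CPM per kb, SD) and Gas6 (78.1 ± 9.69 and 71.8 ± 24.4 CPM per kb) followed and did not differ beyond their spread. Axl had 14.4 ± 2.23 and 9.48 ± 3.81 CPM per kb (SD), and Cd36 8.25 ± 2.09 and 9.64 ± 9.36, so that Axl and Cd36 did not differ beyond their spread in KO. Scarb1 (5.8 ± 0.469 and 4.16 ± 1.45 CPM per kb) and Msr1 (4.19 ± 3.18 and 2.81 ± 0.837) had lower means and did not differ beyond their spread, and Colec12 had 1.06 ± 0.416 and 0.774 ± 0.348 CPM per kb. In KO the spread of Cd36 covered the means of Scarb1, Msr1 and Colec12 as well. In WT the spread of Cd36 overlapped those of Scarb1 and Msr1, and the spread of Msr1 reached that of Colec12. Marco was lowest in KO ns at 0.334 CPM per kb, while its WT ns mean of 6.03 CPM per kb had an SD of 13.5 with WT ns 8 included. In KO LPS Marco was the highest at 355 ± 84.2 CPM per kb, ahead of Mertk at 215 ± 19.1, Pros1 at 127 ± 57.5 and Msr1 at 113 ± 39.9. Pros1 and Msr1 did not differ there beyond their spread.

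**Figure D3:**
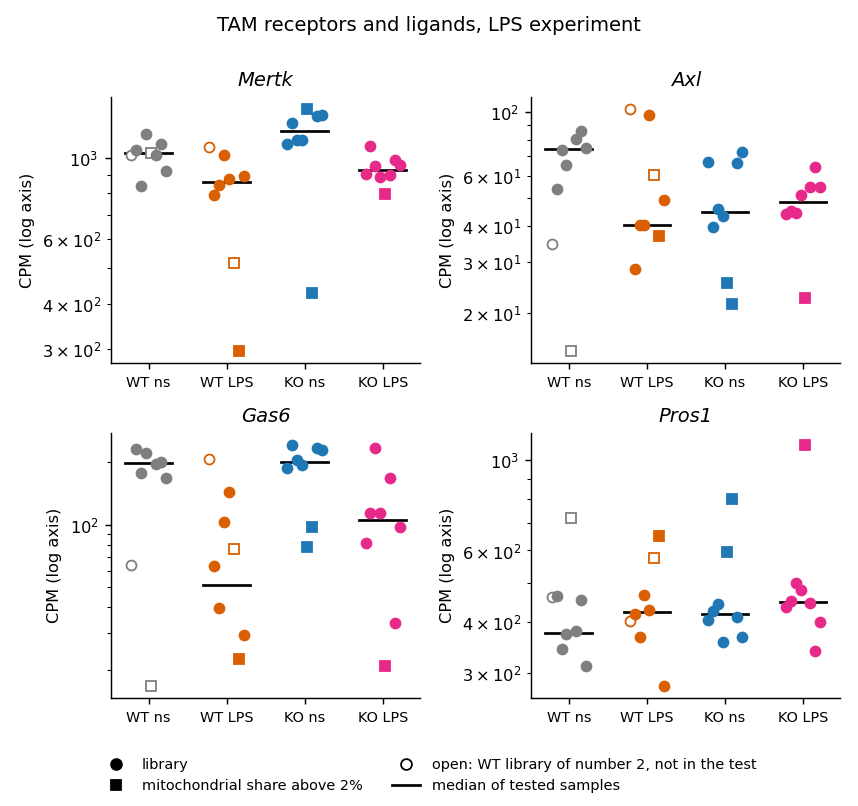
Level of the receptors Mertk and Axl and the ligands Gas6 and Pros1 in each library of the LPS experiment, in CPM on a log axis; symbols mean the same as for the scavenger receptors. Gas6 is lower in every tested WT LPS sample (22.5 to 143 CPM) than in every tested WT ns sample (167 to 231 CPM), and Pros1 is highest in squares.

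Mertk levels overlapped between ns and LPS samples in both genotypes. In KO it ranged from 428 to 1360 CPM without LPS (median 1190 CPM) and from 795 to 1080 CPM with LPS (median 926 CPM). The log2 fold change was -0.27 (nominal 95% interval -0.658 to 0.12, edgeR adjusted p = 0.35). In WT it ranged from 838 to 1160 CPM (median 1030 CPM) and from 297 to 1020 CPM (median 860 CPM), a log2 fold change of -0.37 (-0.819 to 0.0798; edgeR adjusted p = 0.23). The lowest samples were WT LPS 7 (297 CPM) and KO ns 6 (428 CPM), both of high mitochondrial share. Without the 4 such libraries KO ns held 1090 to 1310 CPM and KO LPS 885 to 1080 CPM, and Mertk was called lower in KO (log2 fold change -0.33 ± 0.08; edgeR adjusted p = 0.00162). In WT it was not called in that set (-0.18 ± 0.09; edgeR adjusted p = 0.0901).

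Axl, the TAM receptor bound by Gas6 and not by protein S, was not called in either genotype. In KO it ranged from 21.5 to 72.5 CPM without LPS (median 44.8 CPM) and from 22.5 to 64.3 CPM with LPS (median 48.5 CPM), with a log2 fold change interval of -0.487 to 0.478. In WT it ranged from 54 to 85.6 CPM (median 74.1 CPM) and from 28.5 to 97.6 CPM (median 40.5 CPM), a log2 fold change of -0.58 ± 0.29 (SE; edgeR adjusted p = 0.125). The WT comparison turned on WT LPS 5, at 97.6 CPM where the other WT LPS samples held at most 49.5 CPM. With that sample left out, the log2 fold change was -0.87 (edgeR adjusted p = 0.0164). WT LPS 5 also had the highest summed level of fibroblast and mural markers of the LPS experiment, 12.4 CPM, and 546 CPM of border-associated macrophage markers. Their part in the Axl value was not tested. Without the 4 libraries of high mitochondrial share Axl was called lower in WT (-0.49 ± 0.17; edgeR adjusted p = 0.0163) and not in KO (-0.14 ± 0.15; edgeR adjusted p = 0.445). Tyro3, the third receptor of the family, held 0.238 to 0.376 CPM as group means of the LPS experiment and was not called in any comparison. It was named to complete the family, after its values were seen.

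Gas6, the ligand of all TAM receptors, was lower with LPS in WT. There it ranged from 167 to 231 CPM without LPS (median 198 CPM) and from 22.5 to 143 CPM with LPS (median 51.5 CPM). The WT groups did not overlap, and the log2 fold change was -1.57 ± 0.45 (SE; edgeR adjusted p = 0.00858). In KO it ranged from 78 to 242 CPM (median 199 CPM) and from 20.9 to 233 CPM (median 105 CPM), with overlap and a log2 fold change of -0.79 ± 0.38 that was not called (edgeR adjusted p = 0.125). The 2 lowest KO ns libraries, at 78 and 96.9 CPM, and the lowest KO LPS library, at 20.9 CPM, were all of high mitochondrial share. In their absence KO ns held 187 to 242 CPM, KO LPS held 33.8 to 233 CPM, and the log2 fold change in KO was -0.83 ± 0.34 (edgeR adjusted p = 0.044). The difference between the genotypes in this response was 0.77 on the log2 scale (interval -0.358 to 1.9; edgeR adjusted p = 0.757), so that a larger fall in WT was not shown. Adgrg1 (r 0.963), Plxdc1 (0.956) and Dtx4 (0.951) had the levels most like Gas6 over the 28 samples.

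Pros1, which encodes protein S, was not called. It ranged from 359 to 800 CPM in KO ns (median 420 CPM) and from 340 to 1090 CPM in KO LPS (median 448 CPM), with a log2 fold change interval of -0.285 to 0.534. In WT it ranged from 313 to 463 CPM (median 377 CPM) and from 279 to 651 CPM (median 424 CPM), with an interval of -0.312 to 0.634. The 6 libraries of high mitochondrial share had 575 to 1090 CPM of Pros1 and the other 26 samples 279 to 500 CPM, the opposite order to Scarb1. Over the 28 samples Canx (r 0.949), Reep5 (0.946) and Tram1 (0.94) had the levels most like Pros1, and the coefficient between Pros1 and Scarb1 was -0.778. What sets these libraries apart was not tested.

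**Figure D4:**
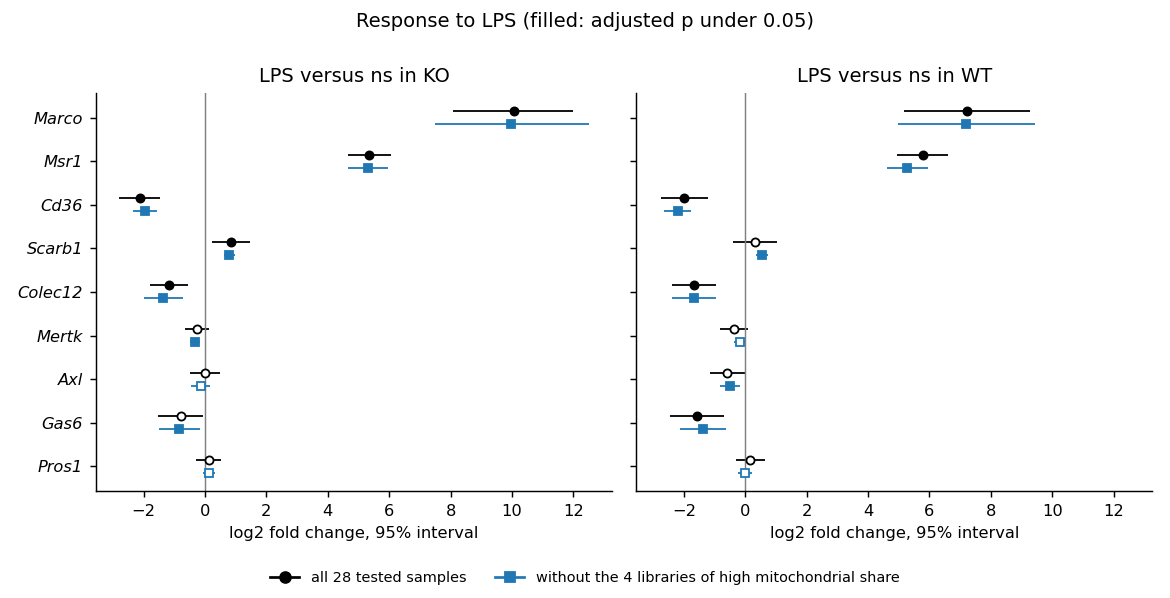
Log2 fold change of LPS against ns in KO (left) and WT (right) for the 9 members, with 95% intervals; black circles are the fit of all 28 tested samples and blue squares the fit without the 4 libraries of high mitochondrial share. Filled symbols have an adjusted p under 0.05. The intervals of Scarb1 and Mertk are narrower in the smaller set, and Marco and Msr1 lie far above 0 in both.

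Marco and Msr1 moved together over the samples. Their coefficient was 0.981 over the 28 samples, Saa3 was the gene most like Marco (r 0.992), and Ms4a6c was the gene most like Msr1 (r 0.993). These samples fall into an ns and an LPS cluster, which any gene that responded strongly to LPS shares. Scarb1 was most like Ndst2 (r 0.975) and Mertk like Chd6 (r 0.947).

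In the 4 WT libraries shown apart, Marco was 747 and 435 CPM in those labelled WT ns 1 and WT ns 5, and 0.682 and 1.72 CPM in those labelled WT LPS 1 and WT LPS 6. Msr1 was 936 and 2000 CPM, against 29.8 and 64 CPM, in the same order. Cd36 had the reverse order, at 5.53 and 9.32 CPM against 60.4 and 296 CPM. Colec12 was 2.92 and 1.89 CPM against 16.5 and 10.4 CPM, and Gas6 was 63.6 and 16.7 CPM against 207 and 75.9 CPM. For each of Marco, Msr1, Cd36, Colec12 and Gas6, both libraries labelled ns lay on the side where the other WT LPS samples lay. Those labelled LPS lay on the side of the other WT ns samples, except for Gas6 in WT LPS 6. Its 75.9 CPM lay within the 22.5 to 143 CPM of the tested WT LPS samples. WT ns 5 and WT LPS 6 are of high mitochondrial share, and the 6 such libraries held 16.7 to 96.9 CPM of Gas6. With all 33 libraries in their labelled groups, no member was called in WT, where 0% of genes were called. The log2 fold changes were then 2.57 for Marco (edgeR adjusted p = 0.2), 1.53 for Msr1 (0.277), 0.751 for Cd36 (0.492), -0.364 for Colec12 (0.656) and -0.925 for Gas6 (0.221).

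The library names of the LPS experiment carry a number that runs through the 4 groups 2 times. From it 2 library sets were inferred here, each with all 4 groups. The labels name no such sets. Both gave the same direction for the members called. In set 1 alone 45.3% of all genes were called in KO and 42.6% in WT, and in set 2 alone 4.36% and 3.31%. In set 1 alone the log2 fold changes of Marco and Msr1 were 10.1 and 5.47 in KO and 10.1 and 5.86 in WT. In set 2 alone they were 10 and 5.32 in KO and 5.88 and 5.81 in WT. WT ns 8, with 64.4 CPM of Marco, is in set 2, and without it the WT value of Marco over both sets was 10.2. Cd36 was -1.53 in KO and -2.15 in WT in set 1, and -2.53 and -1.7 in set 2, where the WT value was not called (edgeR adjusted p = 0.215). Colec12 was -1.2 in KO and -2.22 in WT in set 1, and -1.03 and -1.19 in set 2, where neither was called (0.333 and 0.284). Gas6 in WT was -1.57 in set 1 and -1.53 in set 2, the latter not called (0.297). Scarb1 was 0.814 in KO and 0.58 in WT in set 1, both called, and in set 2, which holds all libraries of high mitochondrial share, 0.967 and 0.088, neither called (0.475 and 0.961).

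The absence of P2RY12 was not accompanied by a called change in any member. Without LPS, 0 of 9 members were called between KO and WT, beside 0.0932% of all genes. An unadjusted edgeR p under 0.05 was held by 1505 of all 16088 genes and by 2 of the members. These were Marco, with a log2 fold change of -3.74 ± 0.86 (SE; edgeR adjusted p = 0.138), and Axl, at -0.58 (interval -1.1 to -0.0641; edgeR adjusted p = 0.514). Without WT ns 8 the log2 fold change of Marco was -0.682 (edgeR adjusted p = 0.843). DESeq2 called Marco in this comparison (-3.71, DESeq2 adjusted p = 0.000213), beside 0.311% of genes. The fit of all 33 libraries called it too (-7.91, edgeR adjusted p = 0.0244), beside 0.114% of genes. In the fit of 28 samples the intervals of the other members included 0. They went from -0.273 to 0.569 for Mertk, which was the most abundant, to -1.16 to 0.102 for Msr1. Without the 4 libraries of high mitochondrial share, 0 of 9 members were called, beside 0.348% of all genes. The intervals of Msr1 (-1.22 to -0.0686), Cd36 (-0.846 to -0.0869), Scarb1 (-0.436 to -0.0698) and Mertk (0.0728 to 0.407) then excluded 0. That of Marco did so as well, and those of Axl, Colec12, Gas6 and Pros1 included 0.

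Under LPS, 0 of 9 members were called between the genotypes, beside 0.0684% of all genes. An unadjusted edgeR p under 0.05 was held by 1026 of all 16088 genes, and among the members by Msr1 alone. Its log2 fold change was -0.97 (interval -1.59 to -0.341; edgeR adjusted p = 0.491), with a mean of 715 CPM in KO LPS and 1470 CPM in WT LPS. That difference was -0.60 ± 0.28 (edgeR adjusted p = 0.424) without the 4 libraries of high mitochondrial share, among them WT LPS 7 with 4190 CPM. Marco was 684 ± 162 CPM in KO LPS and 1240 ± 951 CPM in WT LPS (SD), an interval of -2.31 to 0.535. All members had intervals including 0 other than Msr1.

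The response to LPS was not shown to differ between the genotypes for any member. In the genotype-by-LPS interaction 0 of 9 members and 0% of all genes were called by edgeR. DESeq2 called no member there, beside 0.0186% of genes. An unadjusted edgeR p under 0.05 was held by 795 of all 16088 genes, and among the members by Marco alone. Its difference of 2.85 ± 1.13 on the log2 scale (SE; edgeR adjusted p = 0.74) became -0.181 (0.946) without WT ns 8. The interval for Msr1 was -1.33 to 0.453, for Cd36 -1.12 to 0.84 and for Mertk -0.493 to 0.695. The 2 responses were each measured against their own ns samples.

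**Figure D5:**
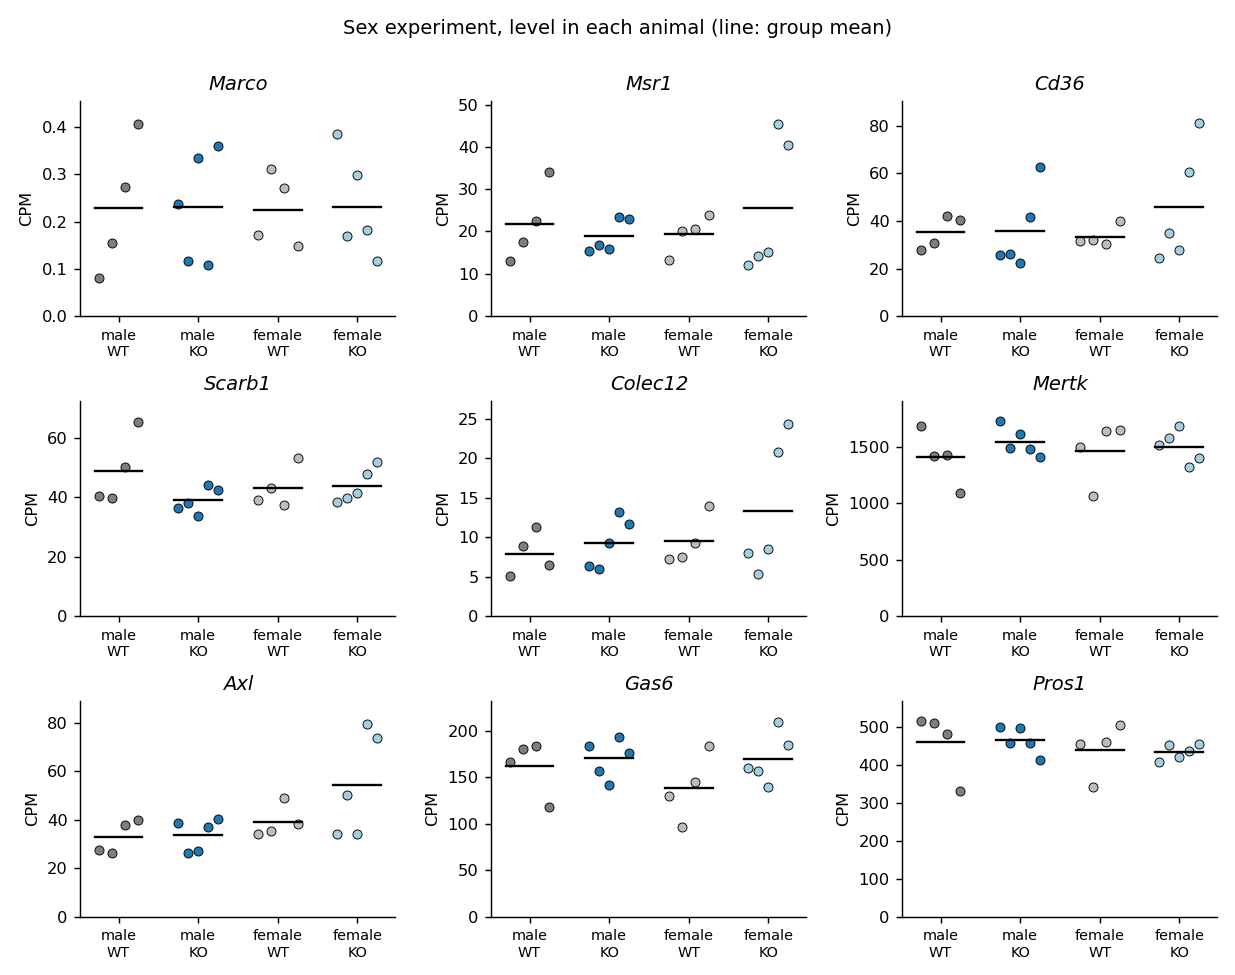
Level of the 9 members in each animal of the sex experiment, in CPM from 0, by sex and genotype; lines are group means. Female KO 4 and female KO 5 are highest for Msr1, Colec12 and Axl, and for Cd36 male KO 5 (62.7 CPM) lies between them.

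In the sex experiment, whose animals carry no treatment label, no member was called between the genotypes or between the sexes. The counts were 0 of 9 in males (0.00946% of all 31709 genes called), 0 of 9 in females (0.164%), 0 of 9 averaged over the sexes (0.432%), 0 of 9 for the sex-by-genotype interaction (0%) and 0 of 9 for females against males (0.861%). At an unadjusted p under 0.05 there were 1 in males (Scarb1, log2 fold change -0.33, interval -0.605 to -0.0546), 1 between the sexes (Axl, 0.47, interval 0.12 to 0.816), and 0 in the other 3 comparisons. Of all 31709 genes, 2171 were below 0.05 in males and 3926 between the sexes. In females it was 1655, averaged over the sexes 2860, and for the interaction 879. DESeq2 called 0 members in all 5. Of all genes it called 0.0757% in males, 0.672% in females, 1.13% averaged over the sexes, 0% for the interaction and 2.38% between the sexes. Levels are not set against those of the LPS experiment, since the tables were counted differently.

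Marco was at the limit of detection in this experiment, at 0.0816 to 0.406 CPM over the 18 animals. Mertk had group means of 1400 to 1550 CPM, and its KO to WT log2 fold change averaged over the sexes was 0.09 (interval -0.0915 to 0.265). For Pros1, with group means of 435 to 465 CPM, that interval was -0.167 to 0.162. The intervals of Scarb1 (-0.349 to 0.0413), Msr1 (-0.463 to 0.64), Cd36 (-0.269 to 0.738), Colec12 (-0.225 to 0.951) and Axl (-0.0922 to 0.604) also included 0.

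For Msr1, Cd36, Colec12 and Axl the widest spread lay among the female KO animals. Msr1 was 12, 14.3, 15.1, 45.5 and 40.5 CPM in female KO 1 to 5, against 13.2 to 24 CPM in female WT. Cd36 was 24.4, 35, 27.9, 60.4 and 81 CPM in the same animals, and Colec12 was 8.07, 5.37, 8.47, 20.8 and 24.3 CPM. Axl was 34.2, 50.2, 34.3, 79.6 and 73.5 CPM. In all 4 genes female KO 4 and female KO 5 were the highest of the female KO animals, and the other 3 lay in or near the range of female WT. Those 2 animals also had the highest summed border-associated macrophage markers of the experiment, 907 and 1180 CPM, against 213 to 660 CPM in the other 16. The part of these cells in the levels of Msr1, Cd36, Colec12 and Axl was not tested.

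Neutrophil markers summed to 48200 CPM in male WT 5 and 28600 CPM in female WT 2, against at most 7670 CPM in the other animals. These 2 animals had the lowest Mertk (1090 and 1060 CPM), Gas6 (118 and 96.4 CPM) and Pros1 (332 and 342 CPM) of all 18. In male WT 5 Scarb1 was highest, at 65.4 CPM. With these 2 animals left out, the KO to WT log2 fold change of Scarb1 in males was -0.16 (interval -0.413 to 0.102). Without them no member was called, beside 0.969% of genes, with KO to WT log2 fold changes averaged over the sexes of -0.03 ± 0.07 for Mertk and -0.12 ± 0.05 for Pros1 (SE; edgeR adjusted p = 1 and 0.649).

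Gas6 has a limit of its own in the sex experiment. Its span there (build GRCm39, chr8:13515374-13544535, minus strand) overlaps the gene Tmem255b on the opposite strand over 28061 bases. The Tmem255b count was 97.7% to 98.6% of the Gas6 count in all 18 animals, so the 2 genes cannot be told apart in that table. In the LPS experiment the Tmem255b count was 0% to 1.56% of that of Gas6. The Gas6 count of the sex experiment gave 139 to 170 CPM as group means, with an interval of -0.0503 to 0.413 between KO and WT. Of the other members, Scarb1 overlaps Gm32701, whose median count was 7.08% of that of Scarb1.

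Among 16 other scavenger receptors, 11 could be tested in the LPS experiment. In KO 1 of them rose and 0 fell with LPS, and in WT 1 rose and 1 fell, beside 28.9% and 30.9% of all genes called in these comparisons. Cxcl16, a membrane-bound chemokine that also takes up oxidised lipids, rose from 60.4 ± 15.4 to 302 ± 72.8 CPM in KO (SD; log2 fold change 2.33 ± 0.23 SE, edgeR adjusted p = 1.51e-08) and from 51 ± 4.26 to 412 ± 326 CPM in WT (2.95 ± 0.27, 8.44e-09). Cd5l, a secreted scavenger protein of macrophages, fell in WT from an already low 1.2 to 0.445 CPM (-1.45 ± 0.52, edgeR adjusted p = 0.0357). The median log2 fold change of the list was 0.122 in KO and -0.146 in WT.

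Among 25 other genes of TAM signalling and apoptotic-cell uptake, 24 could be tested. In KO 4 of them rose and 2 fell with LPS, and in WT 6 rose and 2 fell, shares near the 28.9% and 30.9% of all genes. Elmo1, which links engulfment receptors to Rac activation, fell from 512 ± 103 to 215 ± 14.9 CPM in KO (log2 fold change -1.25, edgeR adjusted p = 1.04e-07) and from 530 ± 51.5 to 204 ± 41.5 CPM in WT (-1.38, 2.91e-07). Sirpa, the receptor for the signal Cd47 that inhibits engulfment, fell from 2640 ± 861 to 1220 ± 406 CPM in KO and from 2900 ± 394 to 1090 ± 358 CPM in WT. Calr, a chaperone that promotes engulfment when exposed on dying cells, rose from 985 ± 195 to 2220 ± 514 CPM in KO and from 979 ± 145 to 1650 ± 687 CPM in WT. Abca1, a cholesterol efflux transporter, rose by 0.74 ± 0.17 in KO and by 0.95 ± 0.19 in WT on the log2 scale. Median log2 fold changes of the list were 0.061 in KO and -0.00541 in WT, close to those of all genes.

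All 10 transcription factors listed beside these receptors were tested, and with LPS 2 were called higher and 2 lower in each genotype, beside the same 28.9% and 30.9% of all genes. Nr1h3, the oxysterol receptor LXR-alpha, rose from 2.38 ± 0.857 to 7.71 ± 4.04 CPM in KO (log2 fold change 1.69 ± 0.37, edgeR adjusted p = 0.000814) and from 2.79 ± 0.515 to 10.2 ± 6.78 CPM in WT (1.88 ± 0.42, 0.00127). Pparg, a nuclear receptor for fatty acids, fell from 0.615 to 0.213 CPM in KO and from 1.29 to 0.412 CPM in WT, all of them low levels. Maf fell from 746 ± 244 to 384 ± 110 CPM in KO and from 748 ± 138 to 432 ± 78.2 CPM in WT, and Nfe2l2, the oxidative stress factor Nrf2, rose by 0.44 and 0.51 on the log2 scale. Rxrg, a retinoid X receptor, was the only gene of the 3 lists called between the genotypes. It was 5.47 ± 1.4 CPM in KO ns and 1.23 ± 0.286 CPM in WT ns (2.14 ± 0.32, edgeR adjusted p = 0.000992), and 8.13 ± 3.15 against 2.21 ± 1.48 CPM under LPS (1.89 ± 0.32, 0.00624). In the sex experiment no gene of the 3 lists was called between the genotypes.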

How the data were processed

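For each experiment the authors deposited whole-number read counts by gene, not normalized, as 1 table. Per the submitters' processing notes, the tools included FastQC, STAR 2.6.1, featureCounts of Subread and DESeq2, on build GRCm39. Their settings and the strand setting are not given in the sources used here. Per the file headers, the gene length of the sex experiment equals the whole span for all 50565 genes, so introns lie inside. There 79% to 89.2% of counts from 1 to 20 were even, against 39.7% to 45.6% in the LPS experiment, and no model joined the tables. Of 57 labelled libraries, 6 repeat libraries of the sex experiment are not analysed here.

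Samples were matched to columns by name and grouped by their labels. Genes passing filterByExpr (31709 and 16088) were scaled by TMM and tested with the quasi-likelihood F test of edgeR 4.0.16 in R 4.3.3, with robust dispersions and Benjamini-Hochberg adjustment. For the LPS experiment, library set, as inferred from the library names, was a covariate. The test covers 18 and 28 samples, with a biological coefficient of variation of 35.3% and 40.1%. In that experiment the 4 WT libraries of number 2 were left out of the test. The ratio of chi-square to degrees of freedom was 1.86 for WT LPS 8 and 9 and 8.32 or more for the other pairs within groups. Levels are CPM from TMM-scaled totals. Intervals are nominally 95%, from a normal quantile and an SE derived from the F statistic, and are somewhat narrower than the F test allows. For Axl with LPS in WT the interval was -1.14 to -0.0199 at an unadjusted edgeR p of 0.0526. Like p-values, intervals treat samples as independent. Exon length per gene came from GENCODE M21 (GRCm38), used for lengths only. The fits were tested on simulated data with known changes.

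The members, the gene lists and the marker lists were chosen with earlier results of these data known. Named genes of the 3 lists are up to 4 per list and comparison among those called, with the largest fold change. Correlates are the 3 genes most like each member. Alternatives were DESeq2 1.42.0, RLE scaling, other filters and thresholds, sample choices, a replicate block, each library set alone and each sample left out. Fits without libraries of high mitochondrial share, without WT ns 8 as well, and without the 2 animals of highest neutrophil markers were chosen after seeing the data.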

Additional observations from a re-analysis of the deposited data

Results flagged for a closer look

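Of 72 pairs of a member and a group, 14 had a highest or lowest sample far from the rest of its group by Dixon's test on CPM. The limit used gives about 1 in 20 for independent, normally distributed values. These levels share libraries and were not checked for that shape, so the rate by chance is not known here. Of the 14, 9 fell in libraries of high mitochondrial share. WT LPS 7 was highest for Msr1 (4190 CPM, others at most 1390 CPM) and lowest for Scarb1 (17.4 CPM, others at least 64.4 CPM) and Mertk (297 CPM, others at least 790 CPM). KO LPS 5 was highest for Msr1 (1310 CPM), Cd36 (19.9 CPM) and Pros1 (1090 CPM) and lowest for Scarb1 (7.24 CPM). KO ns 6 was highest for Cd36 (115 CPM) and lowest for Mertk (428 CPM). Outside these libraries, WT ns 8 was highest for Marco (64.4 CPM) and Msr1 (67 CPM), KO LPS 7 for Marco (1070 CPM), WT LPS 5 for Axl (97.6 CPM) and female WT 5 for Cd36 (39.9 CPM).

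The 4 WT libraries that were not tested had levels above the 6 tested WT ns samples in 11 cases. In the library labelled WT ns 1 these were Marco (747 CPM), Msr1 (936 CPM) and Scarb1 (66.7 CPM). In that labelled WT ns 5 they were Marco (435 CPM), Msr1 (2000 CPM) and Pros1 (720 CPM). In that labelled WT LPS 1 they were Cd36 (60.4 CPM), Colec12 (16.5 CPM) and Axl (102 CPM), and in that labelled WT LPS 6 Cd36 (296 CPM) and Pros1 (575 CPM). Why these libraries differ from their labelled groups was not tested.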

How the results depend on the processing

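Of 3106 values of the 90 pairs of a member and a comparison under other settings, 3058 stayed on their side of the threshold, 30 lost the call, 17 gained it and 1 reversed. Of 2666 values of pairs that were not called, 212 had the other sign, and of 440 values of called pairs 1 had. That was Cd36 with LPS in WT, 0.751 with all 33 libraries in their labelled groups. Between KO and WT at ns 0 members were called (0.0932% of all genes). The count was 1 (Marco) with DESeq2 (0.311%) or with all 33 libraries (0.114%). With LPS in KO, 5 became 3 in library set 2 alone (4.36% of all genes called), 3 with all 33 libraries (22.3%) and 7 without the 4 libraries of high mitochondrial share (54.7%). With LPS in WT, 5 became 2 in set 2 alone (3.31%), 0 with all 33 libraries (0%), 2 with all labelled libraries but the 6 of high mitochondrial share (32.5%), 7 without the 4 such libraries in the test (54.1%) and 7 in set 1 alone (42.6%). Scarb1 in KO lost its call without a filter (adjusted p = 0.0551), above a mean of 5 CPM (0.0563) and with only the groups compared (0.0656). The labels state no pairing by number. Deviations of same-numbered samples from their group means were on average more alike than those of other pairs. In the sex experiment mean r was 0.205 over 8 pairs of the same replicate number (6 over 0.1), against -0.0479 over 32 others. In the LPS experiment it was 0.239 over 35 pairs of the same library set and number (21 over 0.1), against 0.0264 over 257 others. Of samples with such a partner, 9 of 16 and 11 of 27 were most like a sample of their own number. The main fits left these numbers out. A replicate block gave 6 members called with LPS in each genotype, beside 34.6% of all genes in KO and 35.8% in WT. It added Gas6 in KO (-0.88, edgeR adjusted p = 0.0334) and Axl in WT (-0.803, 0.00187). In every other comparison it gave 0 members, beside at most 0.647% of genes.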
